A study of Sus scrofa with 80 samples.

Results

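The change between 1 week and 4 months of age was followed in 7 tissues of the Göttingen minipig: cerebellum, hypothalamus, cortex, liver, kidney, spleen and bone marrow. The comparison used 28 of the 80 arrays of the series, 14 at each age, with 1 female and 1 male animal for every tissue and age. All animals were untreated minipigs from a single breeder. Every array was hybridised with Cy3-labelled cRNA made from total RNA of whole frozen tissue, so that fewer cells of a type and less RNA per cell cannot be told apart. The study's methods name fewer animals than arrays, but do not tie that number to these ages. Tissues may therefore share animals, and the labels do not say which do. A gene was taken as shared when it was called (adjusted p under 0.05, limma) in the same direction in 5 or more of the 7 tissues. This rule chose the genes from the difference between these 2 ages, so that difference is given below as a description, with no test of its own. The 28 arrays of the same tissues at 4 weeks and 2 months did not choose the genes and were used to test them.

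The first months after birth are a time in which organs grow by cell division and then pass to growth of existing cells. Dividing cells carry a typical set of transcripts for DNA replication, chromosome segregation and spindle formation. Young connective tissue is laid down from fibrillar collagens and fibrillins. Liver and spleen form blood cells around birth and hand this task over to the bone marrow. Molecules that present antigen to T cells, encoded in the pig by the swine leukocyte antigen (SLA) genes of the major histocompatibility complex (MHC), are sparse in the newborn and accumulate as the immune system meets its first microbes.

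The labels of 6 tissues were set apart by their own marker genes. The mean log2 level of the liver markers, for instance, lay between 11.0 and 11.4 in liver and reached at most 4.93 elsewhere. The hypothalamus was the exception, since its markers lay between 5.18 and 5.77 there and also reached 5.77 in cortex, and 3 of the 10 measured markers were highest in hypothalamus. The median intensity of an array ranged from 29.5 to 79.0, and 50.6% to 59.0% of the spots were well above background, with the same median of 54.6% at both ages. The arrays lay on 9 slides, all of which held both ages, but no slide held both ages of any tissue.

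Genes called the same way in most organs were few. On simulated data the rule recovered 34% of changes of 1 log2 unit and 96% of changes of 2. Smaller changes shared by most organs can be missed by these counts. In all, 51 of 23722 genes (0.215%) were higher at 4 months in 5 or more tissues, and 147 (0.62%) were lower. Of the higher genes 34 were called in 5 tissues, 11 in 6 and 6 in all 7. Of the lower genes 91 were called in 5 tissues, 35 in 6 and 21 in all 7. The share of all genes called in a single tissue was 13.9% in cerebellum, 4.94% in hypothalamus, 1.82% in cortex, 9.11% in liver, 10.4% in kidney, 37.8% in spleen and 10.6% in bone marrow. The median of the mean log2 difference over 7 tissues was 1.11 for the higher genes, with a range of 0.18 to 2.44, and -1.38 for the lower genes, with a range of -4.00 to -0.30. These are fitted values, and 18 higher and 71 lower genes were not well above background at 1 or both ages in some tissue, where the fitted value is not a measured fold. These counts depended on the fit. With the slide as a block they were 7 higher and 24 lower, with each tissue fitted alone 6 and 21, and without the spleen, with 5 of the remaining 6 tissues needed, 24 and 75. Leaving out all arrays of the 1-week females left 6 and 28, of the 1-week males 17 and 57, of the 4-month females 36 and 87, and of the 4-month males 29 and 76. Leaving out the 1-week female bone marrow array alone left 32 higher genes.

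**Figure D1:**
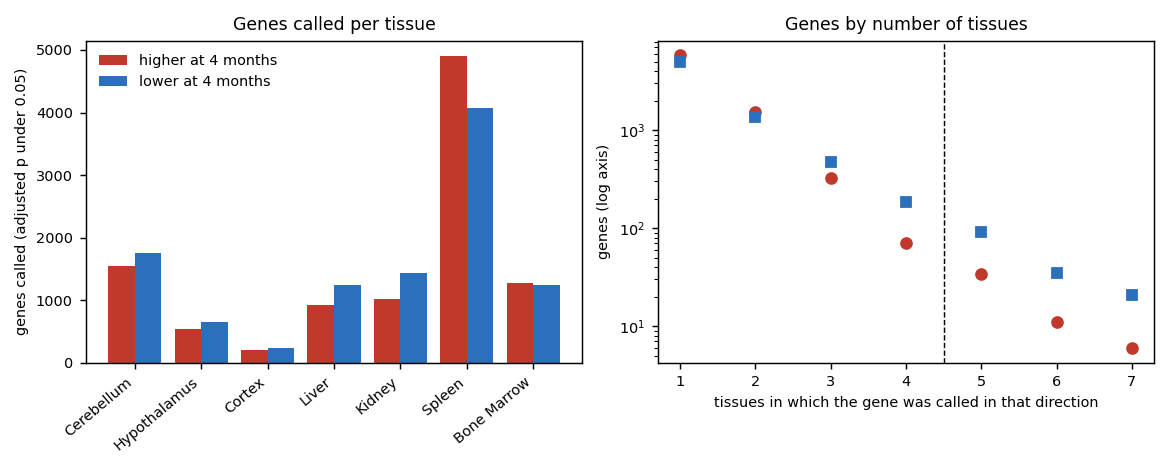
Left, number of genes called higher and lower at 4 months than at 1 week in each of the 7 tissues (bars, linear axis). Right, number of genes called in the same direction in a given number of tissues (points, log axis), with a dashed line at the threshold of 5 tissues, beyond which 51 genes were higher and 147 lower.

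The tissues did not contribute evenly. Of the 147 lower genes, 138 were called in cerebellum, 108 in hypothalamus, 105 in cortex, 134 in liver, 135 in kidney, 125 in spleen and 67 in bone marrow. Their median log2 difference was -2.12 in spleen, -1.96 in kidney, -1.91 in liver, -1.34 in cerebellum, -0.91 in cortex, -0.83 in hypothalamus and -0.63 in bone marrow. The lower genes thus differed least in bone marrow. Blood-forming cells divide there throughout life, and whether this bears on the difference was not tested. Of the 51 higher genes, 48 were called in cerebellum, 45 in hypothalamus, 41 in cortex, 27 in liver, 34 in kidney, 43 in spleen and 40 in bone marrow. Here liver held the fewest calls, with a median log2 difference of 0.84 against 1.28 in spleen.

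Among the gene lists examined, cell division held the most lower genes. Of 57 measured entries of a cell cycle list, 22 were lower in 5 or more tissues and 0 were higher. By tissue, 29 entries were called lower in cerebellum (7.37% of all genes were), 17 in hypothalamus (2.7%), 18 in cortex (1%), 37 in liver (5.25%), 36 in kidney (6.05%), 53 in spleen (17.2%) and 10 in bone marrow (5.2%). No entry of the list was called higher in any tissue. The median log2 difference of the list was -2.55 in spleen, -1.58 in liver, -1.39 in kidney, -0.75 in cerebellum, -0.37 in bone marrow, -0.36 in cortex and -0.31 in hypothalamus, against medians over all genes between -0.002 and 0.041. The members were chosen with earlier results known, and the list's counts are given as a description.

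TOP2A, the topoisomerase that untangles replicated chromosomes, was called lower in 6 tissues. In liver its log2 level was 9.57 in the female and 9.73 in the male at 1 week, against 4.40 and 5.50 at 4 months, a difference of -4.70 ± 0.38 (SE). In cerebellum it was 8.69 and 8.73 at 1 week and 4.85 and 5.60 at 4 months. In bone marrow it was 11.59 on both arrays at 1 week and 11.13 and 11.07 at 4 months, with an adjusted p of 0.47 in the limma fit. The ages did not overlap in any of these tissues. With 2 arrays per age the same held for 51.9% of all genes in liver, 57.5% in cerebellum and 53.2% in bone marrow. The level of TOP2A in bone marrow at 4 months stayed close to that of spleen at 1 week, 11.67 and 11.88. PTTG1, the securin that blocks early separation of sister chromatids, was called in all 7 tissues. Its level in kidney was 9.09 and 9.46 at 1 week and 5.27 and 5.33 at 4 months. In bone marrow it was 12.07 and 11.94 against 11.17 and 11.10. The differences of PTTG1 ran from -4.07 in liver to -0.87 in bone marrow. Its ages did not overlap in kidney and bone marrow, nor did those of 54.2% and 53.2% of all genes there.

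The minichromosome maintenance proteins form the helicase that opens DNA at replication origins. MCM5 was called in 7 tissues, with levels of 12.47 and 12.44 in spleen at 1 week and 9.69 and 9.48 at 4 months. In cortex, where the change was smallest, it was 7.10 and 7.41 at 1 week and 6.42 and 6.64 at 4 months. MCM3 was called in 7 tissues as well, with differences from -3.83 in spleen to -0.93 in hypothalamus. In liver and kidney MCM3 at 4 months was not well above background, so that its level at 1 week was at least 6.39-fold and 5.93-fold higher there. The bound here and below is the brighter group's mean against the higher of the dim probe's own signal and the lowest signal well above background.

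Several genes of the mitotic spindle were not well above background at 4 months. ASPM, which organises spindle poles, was at least 17.2-fold higher at 1 week in liver, 12.4-fold in kidney and 6.79-fold in cerebellum. ESPL1, the separase that cuts the cohesin ring, was at least 22.2-fold higher at 1 week in liver and 11.3-fold in kidney. KIF11, a spindle motor, was at least 15.0-fold higher in liver and 15.1-fold in kidney. These genes were thus measured as bounds in the organs named, where they were not well above background at 4 months. All probes of ASPM are named as cross-hybridising on the array. CCNB1, the B-type cyclin that drives entry into mitosis, was called in 7 tissues with differences from -3.81 in spleen to -0.64 in hypothalamus. PBK, a mitotic kinase, was called in 7 tissues as well, from -3.21 in spleen to -0.76 in cortex.

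Not every proliferation gene was shared. MKI67, the gene of the proliferation marker Ki-67, was called in 0 tissues, with a mean log2 difference of 0.07. CDK1, the kinase partner of CCNB1, was called in 1 tissue, with -1.62 in spleen and values between -0.34 and 0.13 elsewhere. The array held 2 entries for KIF4A, a chromosome motor, and they disagreed. The entry known by accession, whose probes are named as cross-hybridising, had a mean difference of -2.28 and was called in 6 tissues, while the entry named KIF4A had 0.12 and was called in 0. FAM64A, a regulator of the metaphase to anaphase step, had a fitted mean difference of -2.93, but all of its probes are named as cross-hybridising, and in liver at 4 months it was not well above background, at least 11.2-fold lower than at 1 week. The identifier XM_003131879, with a mean of -2.92, followed it closely in every tissue, and whether both read 1 transcript was not tested.

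**Figure D2:**
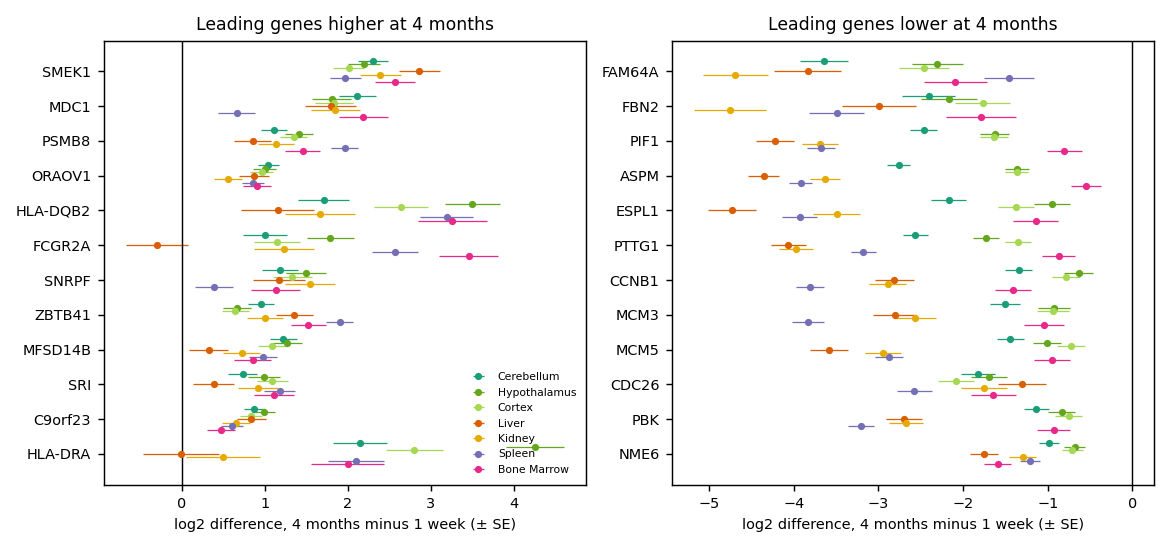
Log2 difference between 4 months and 1 week (horizontal axis, log2 units, bars SE) of the 12 leading shared genes with a symbol in each direction, ranked by the number of tissues called and then by mean difference. Each colour is a tissue, and the spread of the colours shows that FBN2 ran from -4.76 in kidney to -1.77 in cortex while SMEK1 kept between 1.97 and 2.86. FBN2 was not well above background at 4 months in 6 tissues, so its fitted values there stand for bounds.

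Of 41 measured entries of a list of extracellular matrix genes, 3 were shared and lower. FBN2, the fibrillin of developing microfibrils, was called in 7 tissues. In kidney its level was 8.42 and 8.81 at 1 week and 4.09 and 3.63 at 4 months, not well above background, so that it was at least 27.0-fold higher at 1 week. In spleen the bound was 11.3-fold. At 4 months FBN2 was not well above background in 6 of the 7 tissues, the exception being bone marrow, with 7.88 and 8.55 at 1 week and 6.57 and 6.29 at 4 months. COL1A2, a chain of type I collagen, was called in 6 tissues. Its level in cerebellum was 9.09 and 9.19 at 1 week and 5.33 and 5.66 at 4 months, a difference of -3.65 ± 0.50 (SE). In bone marrow the arrays at 4 months lay far apart, 11.52 in the female and 14.54 in the male, against 15.49 and 15.96 at 1 week, where both arrays held saturated spots. In spleen COL1A2 had a difference of -1.07 with an adjusted p of 0.12 (limma). LAMC1, a laminin chain of basement membranes, was called in 5 tissues, from -1.81 in kidney to -0.58 in spleen among those. Over the whole list 9 of the 41 entries were called lower in cerebellum (7.37% of all genes were), 3 in hypothalamus (2.7%), 4 in cortex (1%), 10 in liver (5.25%), 16 in kidney (6.05%), 5 in spleen (17.2%) and 14 in bone marrow (5.2%). In spleen 6 entries were called higher (20.7%), so that neither count there exceeded the share of all genes.

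Of 31 entries of a list of fetal growth and imprinted genes, 3 were shared and lower. GRB10, an imprinted adaptor that restrains insulin signalling, was called in 5 tissues, with levels of 8.78 and 8.51 in liver at 1 week and 7.31 and 7.51 at 4 months. MAGEL2, an imprinted gene of the Prader-Willi region, was called in 5 tissues, with its largest difference of -2.47 in kidney. SOX4, a transcription factor of progenitor cells, was called lower in cerebellum, hypothalamus, cortex, liver and kidney, with -2.03 in cerebellum, and was called higher in spleen, with 8.40 and 9.00 at 1 week and 9.53 and 9.41 at 4 months. The array also held 2 entries for TUBB, a beta tubulin, both called lower in 7 tissues. The levels of the entry named TUBB in liver were 11.21 and 11.46 at 1 week and 10.43 and 10.56 at 4 months. Its differences stayed between -1.20 and -0.59 in every tissue, although its probes are named as cross-hybridising. C5orf13, a gene of neuronal and wound-healing tissue, was called in 5 tissues, with -3.47 in kidney.

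Transcripts of blood cells were also among the lower genes. S100A8, a calcium-binding protein of neutrophils, was 10.10 and 11.12 in liver at 1 week and 3.86 and 4.23 at 4 months, at least 94.5-fold higher at 1 week. In bone marrow it was 15.87 and 15.05 at 1 week and 14.51 and 14.79 at 4 months, with an adjusted p of 0.24 (limma), and was saturated on 1 array at 1 week. PF4, a platelet chemokine, was at least 51.2-fold higher in spleen at 1 week. In bone marrow PF4 was 12.09 and 12.19 at 1 week and 10.09 and 10.57 at 4 months. In hypothalamus neither gene was called, with -0.59 for S100A8 and -0.83 for PF4. Both genes were thus brightest in bone marrow at each age. HBA1, an alpha globin chosen here after its values were seen, was called lower in 6 tissues, with 15.11 and 15.26 in spleen at 1 week and 11.76 and 12.47 at 4 months, and 15.25 and 15.02 against 14.85 and 15.34 in bone marrow. The identifier XM_003361909, also chosen afterwards, had a fitted mean difference of -4.00, with 13.09 and 13.08 in liver at 1 week and 8.05 and 8.28 at 4 months. Its probes were saturated in spleen and bone marrow at 1 week, so its differences there are bounds.

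Beside these genes the markers of red blood cells moved with age in the same organs. Over 23 entries of an erythroid list, 20 were called lower in spleen (17.2% of all genes were), 13 in liver (5.25%), 4 in kidney (6.05%), 3 in cerebellum (7.37%), 2 in hypothalamus (2.7%), 2 in cortex (1%) and 1 in bone marrow (5.2%), the last being near the share of all genes. Their mean log2 level on the arrays of spleen was 10.61 to 10.65 at 1 week and 6.43 to 6.44 at 4 months, and on those of liver 7.98 to 8.06 and 6.00 to 6.17. In bone marrow it was 10.16 to 10.17 and 10.12 to 10.42. In kidney the erythroid list went from 5.87 to 5.51 and the cell cycle list from 6.20 to 4.65. In cortex the lists went from 5.83 to 5.35 and from 4.93 to 4.42, in hypothalamus from 5.74 to 5.52 and from 4.99 to 4.58, and in cerebellum from 5.78 to 5.39 and from 5.65 to 4.76. The mean of each list was thus lower at 4 months in these tissues. The median difference of the erythroid list was -0.05 in cerebellum, 0.03 in hypothalamus, -0.16 in cortex and -0.09 in kidney. HBB, a globin picked here for its large values, differed by -3.72, -2.49, -3.41 and -3.27 in these tissues. HBQ1, picked likewise, differed by -3.40, -3.16, -3.26 and -2.80. The part of blood and blood-forming cells in the lower genes was not tested.

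Genes of antigen presentation were the main named group among the higher genes. Of 28 measured entries of the list, 6 were shared and higher and 0 were shared and lower. The calls came from 5 tissues: 10 entries were higher in cerebellum (6.5% of all genes were), 11 in hypothalamus (2.24%), 10 in cortex (0.818%), 23 in spleen (20.7%) and 12 in bone marrow (5.37%), against 1 in liver (3.87%) and 1 in kidney (4.31%). In liver (5.25%) and in kidney (6.05%) 3 entries each were called lower. The 6 shared entries were SLA-DRA, SLA-DQA1, SLA-6, SLA-2, CD74 and PSMB8.

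CD74, the invariant chain that guides MHC class II molecules, rose in the 3 brain regions, where it was not well above background at 1 week. In cerebellum it was 3.74 and 3.56 at 1 week and 6.17 and 6.41 at 4 months, at least 6.24-fold higher. In spleen it was 9.36 and 9.53 at 1 week and 11.69 and 11.77 at 4 months. In liver the ages overlapped, with 7.39 and 8.00 at 1 week and 8.18 and 7.72 at 4 months, and the adjusted p was 0.81 (limma). HLA-DRA, the array's name for a class II alpha chain, was 3.40 and 4.70 in hypothalamus at 1 week and 7.97 and 8.65 at 4 months, a difference of 4.26. In liver it was 10.10 and 10.44 at 1 week and 10.13 and 10.39 at 4 months. Liver thus already carried a high level of these class II genes at 1 week. SLA-DRA and SLA-DQA1, further class II alpha chains, differed most in hypothalamus as well, by 3.94 and 3.55, and least in liver, by 0.16 and -0.02. All probes of HLA-DRA, SLA-DRA, SLA-DQA1, HLA-DQB2 and SLA-2 are named as cross-hybridising, so that close relatives cannot be told apart.

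HLA-DQB2, a class II beta chain by the array's name, had a fitted mean difference of 2.44 and was called in 6 tissues, liver being the other (adjusted p = 0.12, limma). It was not well above background at 1 week in the 3 brain regions. In bone marrow it was 7.17 and 7.88 at 1 week and 11.27 and 10.29 at 4 months. In hypothalamus it was at least 11.3-fold higher at 4 months. SLA-2, a class I heavy chain, was 10.96 and 11.39 in spleen at 1 week and 13.99 and 13.91 at 4 months, and 11.41 and 11.65 against 11.71 and 11.81 in liver. SLA-6, a nonclassical class I gene, differed by 3.26 in cerebellum and by 0.04 in kidney. SLA-2, SLA-6, CD74, HLA-DRA, SLA-DRA and SLA-DQA1 were called in neither liver nor kidney, whereas HLA-DQB2 was called in kidney, with 7.57 and 7.89 at 1 week and 9.50 and 9.28 at 4 months. SLA-3, another class I gene, was called higher in 0 tissues and lower in 1, with values between -2.81 in liver and -0.43 in spleen. PSMB8, a catalytic subunit of the immunoproteasome, was called in 7 tissues with differences from 0.85 in liver to 1.96 in spleen. This value rested on 2 of its 4 probes, which are named as cross-hybridising. Over the 2 specific probes alone its mean difference was -0.03, with an adjusted p of 0.86 (limma).

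**Figure D3:**
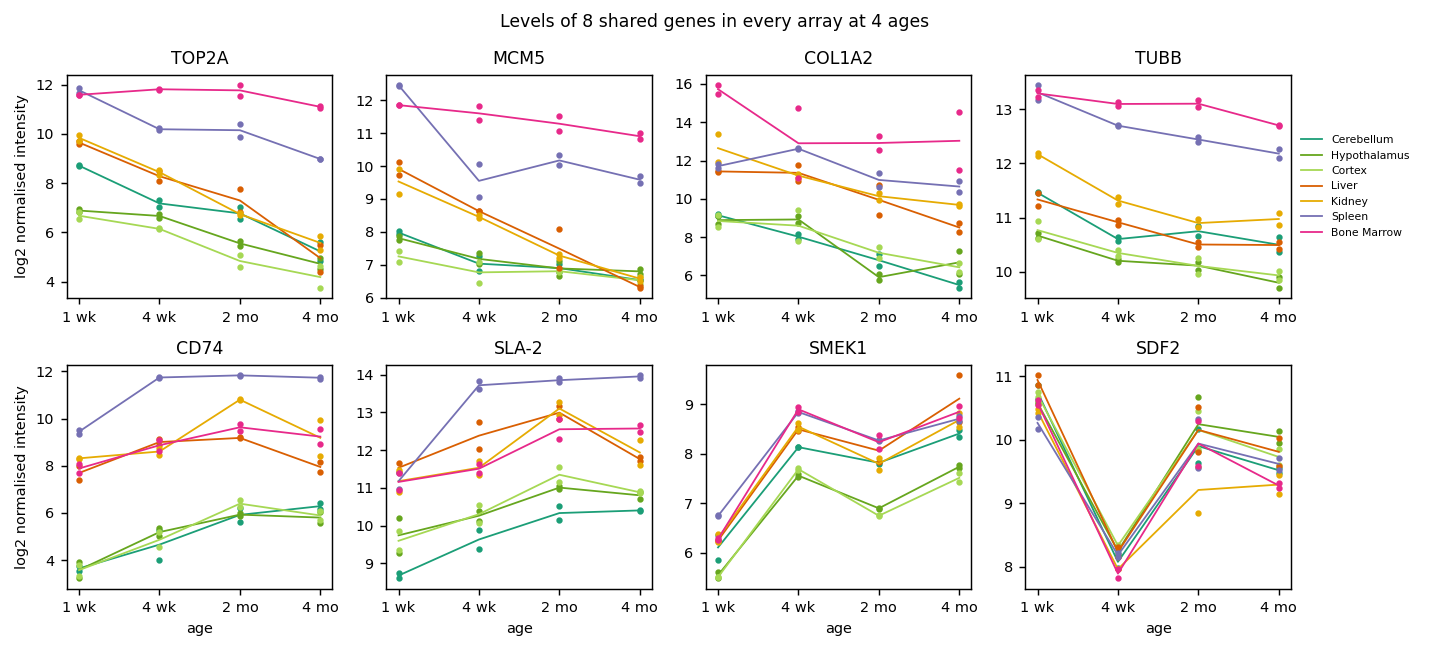
Log2 level (vertical axis) of 8 shared genes in each of the 7 tissues at all 4 ages. Points are single arrays and lines join the means of 2 arrays. TOP2A and MCM5 stay high in bone marrow. Between 1 week and 4 months CD74 and SLA-2 differ less in liver and kidney than in the other tissues. SMEK1 and SDF2 turn between 4 weeks and 2 months in all tissues.

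Immune cell markers moved with these genes in some organs. Over 40 entries of a T and NK cell list, 32 were called higher in spleen (20.7% of all genes were), 24 in bone marrow (5.37%), 5 in liver (3.87%), 5 in kidney (4.31%), 1 in cerebellum (6.5%), 1 in hypothalamus (2.24%) and 0 in cortex (0.818%). Its mean level on the arrays of spleen was 5.14 to 5.2 at 1 week and 6.84 to 6.94 at 4 months. In cerebellum it was 3.83 to 3.89 and 3.99 to 4.01. Over 21 entries of a tissue macrophage list, 16 were called higher in spleen (20.7%) and 5 in bone marrow (5.37%), 8 were called lower in liver (5.25%), and 0 were called higher in cerebellum, hypothalamus or cortex. In cerebellum the macrophage list lay at 5.06 to 5.07 at 1 week and 5.11 to 5.12 at 4 months, in cortex at 5.45 to 5.5 and 5.52, and in hypothalamus at 5.38 to 5.41 and 5.53 to 5.63. The arrays of the 2 ages did not overlap on the mean of the macrophage list in any of the 3 brain regions. Among single genes this held for 57.5% of all genes in cerebellum, 49.9% in hypothalamus and 44.4% in cortex. The B cell list had 14 of 25 entries called higher in spleen (20.7%) and 5 in bone marrow (5.37%). In cerebellum 3 were (6.5%), in liver and kidney 1 each (3.87% and 4.31%), and in hypothalamus and cortex 0. The part of these immune cells in the higher antigen presentation genes was not tested. FCGR2A, an Fc receptor of myeloid cells, was called higher in 6 tissues, with 5.36 and 5.43 in bone marrow at 1 week and 9.30 and 8.41 at 4 months, and 9.67 and 9.42 against 9.32 and 9.16 in liver.

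Other higher genes belonged to no large group. SMEK1, a regulatory subunit of protein phosphatase 4, was called in 7 tissues. Its level in spleen was 6.73 and 6.75 at 1 week and 8.66 and 8.75 at 4 months, and in cortex 5.51 and 5.50 against 7.60 and 7.42. MDC1, a mediator of the DNA damage response, was called in 7 tissues, from 0.66 in spleen to 2.19 in bone marrow. ORAOV1 was called in 7 tissues within a narrow range of 0.56 to 1.04. SNRPF, a core protein of the spliceosome, was called in 6 tissues, with fitted values from 1.13 in bone marrow to 1.55 in kidney among those. It was not well above background at 1 week in hypothalamus, liver, kidney and bone marrow. At 4 months it was thus at least 2.92-fold higher in kidney and 2.19-fold in bone marrow. SRI, a calcium-binding protein, and MFSD14B, a membrane transporter, were also called in 6 tissues, with mean differences of 0.91 and 0.92. UQCRH, a subunit of respiratory complex III, was the 1 shared entry of 40 from the respiratory chain, with 11.10 and 11.23 in hypothalamus at 1 week and 12.47 and 12.54 at 4 months. RPS2, a ribosomal protein, was the 1 shared entry of 42 from its list, lower in 5 tissues and with 0.14 in liver and 0.64 in kidney.

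Lists of interferon response, sterol synthesis, plasma and B cells, T and NK cells, erythroid cells, tissue macrophages, thyroid hormone response, glucocorticoid response, circadian clock, splicing, endothelial and stress genes held 0 shared genes. The erythroid list did not hold the array's name HBA1, a globin entry that was itself shared and lower. Of 23 sterol synthesis entries, 17 were called higher in liver (3.87%), while 9 were called lower in cerebellum (7.37%) and 5 in hypothalamus (2.7%). Likewise 25 of 41 interferon response entries were called higher in spleen (20.7%), 5 in bone marrow (5.37%) and 1 in hypothalamus (2.24%). In cerebellum, cortex, liver and kidney 0 were.

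At the threshold, the shared genes whose adjusted p in the last of the 5 tissues needed was weakest were UQCRH (0.0481) and RANBP10 (0.0450) among the higher and H2AFZ (0.0493) and CCNA2 (0.0491) among the lower genes. Just outside lay FKBP5 (0.0511) and DDO (0.0525) among the higher and GNG12 (0.0519) and PRDX1 (0.0524) among the lower genes. RANBP10 had a mean difference of 0.18 because spleen went the other way, with 10.93 and 10.98 at 1 week and 8.68 and 8.98 at 4 months. It was the 1 higher gene called lower in another tissue, and 3 lower genes were called higher in another tissue.

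The arrays at 4 weeks and 2 months gave a test in samples that had not chosen the genes. It treated the 7 tissues as separate although tissues may share animals, so its p-values may not rest on independent animals. A fit with age and sex as the unit was made only for 1 week against 4 months. Over the mean of the 7 tissues, 99 of the 147 lower genes were called lower at 2 months than at 4 weeks (67.3%), against 8.22% of all genes, and 2 were called higher. Of the 51 higher genes, 20 were called higher (39.2%), against 8.53% of all genes, and 3 were called lower. With the slide as a block in both fits, which left 24 lower and 7 higher shared genes, 6 of those were called lower and 2 higher. The median log2 difference was -0.39 for the lower genes and 0.17 for the higher genes, and 0.01 over all genes. In the lower genes the median was largest in kidney, -0.84, and in liver, -0.65, and smallest in spleen, -0.14. Much of the spleen's difference had thus been reached by 4 weeks, with a mean level of the 147 lower genes of 9.07, 7.83, 7.47 and 6.95 from the youngest to the oldest age. In kidney the same genes stood at 7.77, 6.89, 6.07 and 5.69.

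TOP2A fell between 4 weeks and 2 months by 0.80 ± 0.10 (SE, adjusted p = 4.6e-05, limma), in the same direction in 7 of 7 tissues. Since tissues may share animals, the counts of tissues given here are not counts of replicates. C5orf13 fell by 1.05 (adjusted p = 8.9e-06) and PF4 fell by 1.00 (adjusted p = 2e-05). FBN2 fell by 1.25 (adjusted p = 0.00088) and COL1A2 fell by 1.40 (adjusted p = 0.0014), each in 6 of 7 tissues. Among the higher genes SLA-2 rose by 0.84 (adjusted p = 3.5e-05) and CD74 rose by 0.97 (adjusted p = 8.9e-05), each in 7 of 7 tissues. SLA-DRA rose by 0.66 (adjusted p = 6.1e-05). By list, 18 of the 22 shared cell cycle entries, 3 of the 3 matrix entries and 4 of the 6 antigen presentation entries were called again in the direction of the first step. The exceptions were MCM5, with -0.34 (adjusted p = 0.081), ASPM, with -0.18 (adjusted p = 0.22), CDC20, with -0.16 (adjusted p = 0.31), UBE2C, with -0.14 (adjusted p = 0.46), SLA-6, with 0.14 (adjusted p = 0.23), and PSMB8, with 0.04 (adjusted p = 0.78). Outside the lists, HLA-DQB2 and CDC26 were called in the opposite direction, with -0.30 and 1.20. Immune markers moved in this step too: 28 of 41 interferon response entries, 25 of 40 T and NK cell entries, 7 of 25 B cell entries and 6 of 21 macrophage entries were called higher, against 13 of 28 antigen presentation entries and 8.53% of all genes. Their part in the rise of SLA-2, CD74 and SLA-DRA was not tested.

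**Figure D4:**
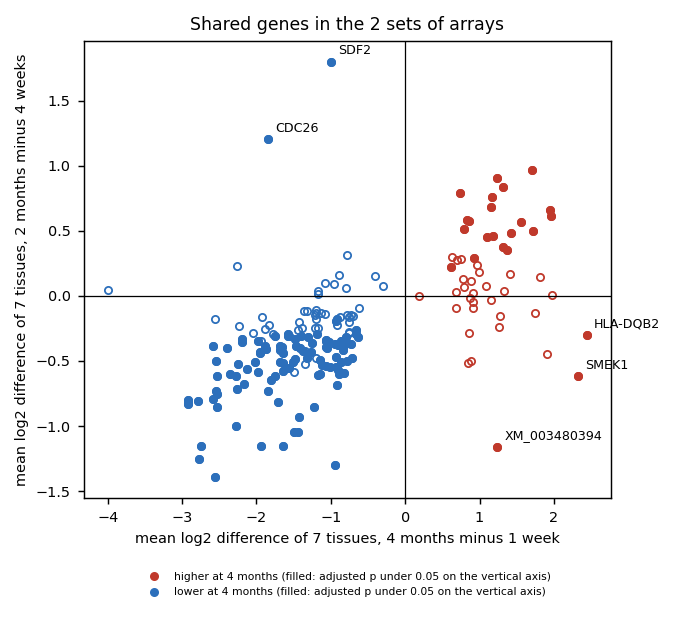
Mean log2 difference over 7 tissues of the 198 shared genes, with 4 months minus 1 week on the horizontal axis, which chose the genes, and 2 months minus 4 weeks on the vertical axis, from other arrays. Filled points passed an adjusted p of 0.05 on the vertical axis, among them SDF2 and CDC26 above 0 and SMEK1, HLA-DQB2 and XM_003480394 below 0, against their horizontal sign.

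The fitted differences of some genes were nearly the same in every tissue. For 6 higher and 5 lower genes the SD of the 7 differences was below their mean divided by 4. Among them the identifiers XM_003133175 and XM_003481786 were not well above background at 1 week in any of the 7 tissues. At 4 months CDC26 was not in hypothalamus, cortex and spleen, nor was XM_003483676 in cortex and bone marrow. Their even size is not a measured shift there. SMEK1 was 6.08 ± 0.44 (SD over 7 tissues) in females and 6.12 ± 0.46 in males at 1 week, 8.30 ± 0.54 and 8.31 ± 0.52 at 4 weeks, 7.61 ± 0.58 and 7.76 ± 0.67 at 2 months, and 8.36 ± 0.49 and 8.49 ± 0.74 at 4 months. The level at 4 months was thus close to that at 4 weeks, with a dip between them. CDC26, a subunit of the anaphase-promoting complex measured by 1 probe, was 6.26 in females and 6.39 in males at 1 week and 4.46 and 4.51 at 4 months. At 4 weeks it was 6.31 ± 0.64 in females and 4.36 ± 0.54 in males, and at 2 months 6.10 ± 0.52 and 6.97 ± 0.56. ORAOV1 was 10.22 ± 0.26 in females and 9.43 ± 0.24 in males at 4 weeks, and 8.38 ± 0.35 and 10.27 ± 0.21 at 2 months. The female and the male of these 2 ages therefore stood apart in all tissues together, by more than at 1 week or 4 months. The identifier XM_003133175 did so at 2 months, with 5.07 ± 0.36 in females and 3.38 ± 0.37 in males. This male value lay near the levels at 1 week, 3.52 and 3.48, which were not well above background. TUBB in contrast stepped down at each age with females and males alike.

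**Figure D5:**
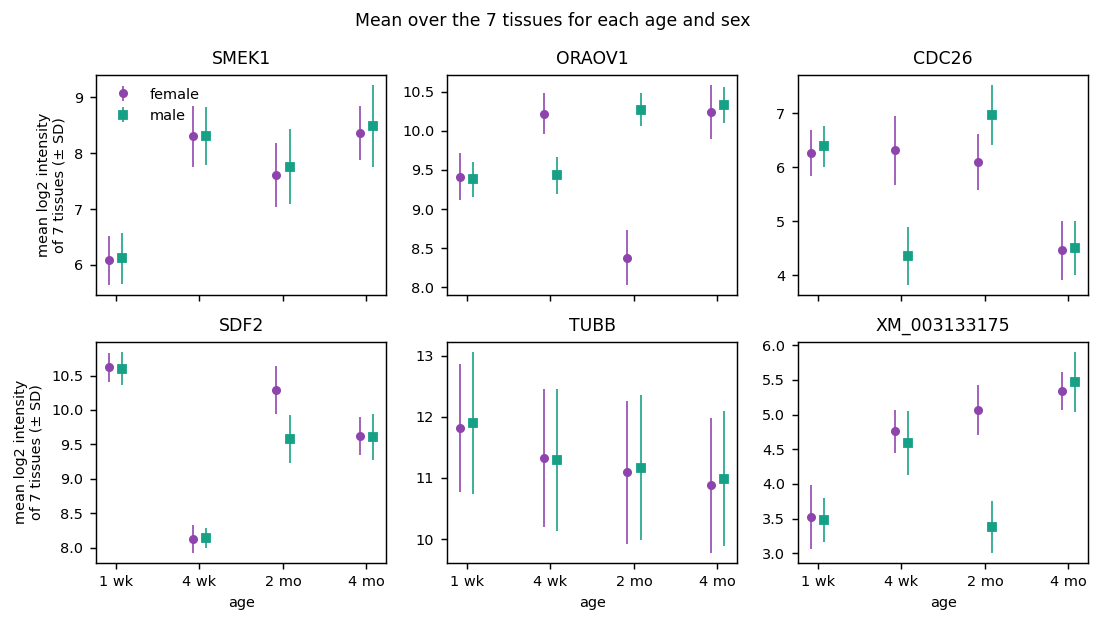
Mean log2 level over 7 tissues (vertical axis, bars SD) for females and males at the 4 ages, for 6 shared genes. SMEK1, SDF2 and TUBB keep females and males close at most ages, while ORAOV1, CDC26 and XM_003133175 separate them at 4 weeks or 2 months.

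Such shifts bear on the unit of replication. Across 11709 genes, the male minus female difference correlated between 2 tissues of the same age with a median r of 0.24 at 1 week and 0.16 at 4 months, and between tissues of different ages with a median r of 0.065. These are correlations across genes, which are not independent replicates. When the 7 tissues of each age and sex were averaged and 2 values set against 2, 3718 of 23722 genes were called (limma), 1665 higher (7.02%) and 2053 lower (8.65%). Age, animal and shared handling cannot be told apart for a gene that moves evenly in all tissues of an animal.

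The scan in which an array was read offered a further partition. For 4 of the 14 pairs of the same tissue and sex both ages had been scanned together. In cortex females and kidney females all 51 higher genes were higher at 4 months, in spleen males 48 and in bone marrow females 50. Of the 147 lower genes, 144, 145, 131 and 129 were lower in these pairs. The arrays of these pairs are among those that chose the genes, so the counts are a description.

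The gonads, with 1 array for each age, were not used to choose the genes and have no replicate check. In ovary 43 of the 51 higher genes were higher at 4 months, 24 of them at least 2-fold, where 5.98% of all genes were. In testis 26 were higher, 16 of them at least 2-fold, where 16.7% of all genes were. Another 11 were at least 2-fold lower there, where 22.9% of all genes were. Of the 147 lower genes, 100 were lower in testis, 79 of them at least 2-fold against 22.9% of all genes. Another 30 were at least 2-fold higher there, against 16.7% of all genes. In ovary 90 were lower, 30 of them at least 2-fold against 8.3% of all genes. Another 19 were at least 2-fold higher there, against 5.98% of all genes. The changes of at least 2-fold against the shared direction were thus near the share of all genes in testis. COL1A2 was 13.69 at 1 week and 9.07 at 4 months in testis, and FBN2 was 8.86 and 6.07. Of the 22 shared cell cycle entries 12 were higher in testis at 4 months, 8 of them at least 2-fold, and 10 were lower, 6 of them at least 2-fold. Among the higher were PTTG1 at 10.83 and 12.77, CCNB2, a B-type cyclin, at 9.93 and 12.50, and TTK, a spindle checkpoint kinase, at 6.49 and 9.59. MCM3 was lower in testis, with 7.23 and 4.15. HLA-DRA was also lower in testis, 10.52 against 7.71, and higher in ovary, 9.80 against 10.92. No test of the difference between testis and the 7 tissues was made.

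Of the 198 shared genes, 129 could be placed in the gene order of the pig assembly Sscrofa11.1. MDC1 and TUBB, which moved in opposite directions in 7 tissues, were direct neighbours there, as were ZBTB41, higher, and ASPM, lower. Of the 51 higher genes 16 and of the 147 lower genes 21 had only probes named as cross-hybridising.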

How the data were processed

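Gene expression was measured on 1-colour Agilent arrays. The authors deposited scanner files with intensity values for each spot (Agilent Feature Extraction 11.5.1.1, per the submitters' processing notes), and a table of log2 values that the authors had normalized, used here as an alternative only. The scale of that table is log2 by comparison with the scanner values, and its centring is unknown. From the median intensity, flagged spots were left out, background was corrected with normexp (limma 3.58.1, R 4.3.3), all 80 arrays were quantile normalized, log2 was taken, and spots were averaged by probe and then by gene, giving 23722 genes. A limma model of tissue by age was fitted to the 28 arrays with weights by tissue (14 residual degrees of freedom) and p-values were adjusted by Benjamini-Hochberg within each tissue. The 4 weeks and 2 months arrays were fitted in the same way. P-values measure the spread between a female and a male array, and tissues sharing an animal are not independent. The number of arrays limits the precision.

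Of 23736 genes on the array, 12883 had a symbol in the files and 10853 an accession only, of which 2455 matched a symbol in the RefSeq gene table. Named were the 12 leading genes with a symbol in each direction (by number of tissues, then mean difference), shared genes of the lists, the strongest 2 in each direction between 4 weeks and 2 months, those next to the threshold, and up to 2 identifiers in each direction. Genes outside this rule are marked or were found through the comparisons of tissues and ages. The members and lists were chosen with earlier results of these data known. The fit was tested on simulated data with known changes. It recovered 0% of changes of 0.5 log2 units, 34% of changes of 1, 96% of changes of 2 and 100% of changes of 3. Replicate numbers follow the order of deposit and pair no samples, so sex was the block in the alternative fit. Between 1 week and 4 months the male minus female differences of a tissue correlated with a median of 0.05, so no pairing was used. Alternatives covered the intensity column, background offset, normalization, probe averaging, dim genes, sex and slide blocks, weights, samples in the fit, fold thresholds and the number of tissues. Specific probes, the authors' values and leaving out spleen were added after seeing the data. Plots were drawn with matplotlib 3.10.9 in Python 3.11.15.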

Additional observations from a re-analysis of the deposited data

Results flagged for a closer look

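SMEK1 stood 2.33 higher at 4 months than at 1 week but had -0.62 between 4 weeks and 2 months. HLA-DQB2 had 2.44 and then -0.30. The identifier XM_003480394 had 1.24 and -1.16. In the opposite sense, CDC26 had -1.84 and then 1.20, and SDF2 had -1 and then 1.80. The genes were chosen for the first value and picked here because the second ran against it, so no test of the reversal is given. For CDC26 the second value rested on males, with 4.36 ± 0.54 (SD over 7 tissues) at 4 weeks and 6.97 ± 0.56 at 2 months, while females were 6.31 ± 0.64 and 6.10 ± 0.52. SDF2 was 10.62 ± 0.21 in females and 10.60 ± 0.24 in males at 1 week, 8.13 ± 0.20 and 8.14 ± 0.14 at 4 weeks, 10.29 ± 0.35 and 9.58 ± 0.35 at 2 months, and 9.62 ± 0.28 and 9.61 ± 0.33 at 4 months.

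In spleen or bone marrow, 4 shared genes ran against the tissues that called them. RANBP10 had -2.12 in spleen against a mean of 0.69 in those tissues. SOX4 had 0.77 in spleen against -1.34. ARHGEF19 had 0.47 in spleen against -1.47. KIF21B, a kinesin motor, had 1.79 in spleen and 0.95 in bone marrow against -0.97. These values come from the arrays that chose the genes, and the genes were picked for the opposite sign, so the difference was not tested independently. The levels of KIF21B were 9.13 and 9.11 in spleen at 1 week and 11.06 and 10.76 at 4 months. In cortex they were 13.41 and 13.29 at 1 week and 12.19 and 12.33 at 4 months. The part of a changed cell makeup in these differences was not tested.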

How the results depend on the processing

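Of 764 mean differences of named genes over the 7 tissues under the alternatives, 759 kept their direction and side of the threshold. This says nothing of the call in 5 tissues, since the genes were chosen for large differences on these arrays, and with the slide as a block 7 of the 51 and 24 of the 147 genes stayed shared. RANBP10 missed the threshold in 4 settings. PSMB8 reversed to -0.026 with specific probes only.

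Shared genes (51 higher and 147 lower, 20 and 99 called again between 4 weeks and 2 months) became 7, 24, 2 and 6 with the slide as a block, 6, 21, 0 and 15 with each tissue alone, 122, 331, 46 and 188 at 4 or more tissues, 17, 56, 5 and 41 at 6 or more, and 6, 21, 0 and 14 at 7. At least 2-fold with no overlap gave 76 lower genes, 54 of them called again. Median scaling and specific probes each left 12 higher genes called again. Without spleen 24 and 75 remained. The replicate block by sex gave 58 higher and 145 lower. The scanner-processed intensity gave 2398 genes over animals instead of 3718. Genes called per tissue changed as follows. Scanner-processed intensity gave 2055 in hypothalamus and 832 in cortex, and an offset of 50 gave 687 in cortex. Median scaling, which moved the median of all genes by up to 0.12, gave 1922 in cerebellum and 1392 in liver. The slide block gave 838 in cerebellum, 37 in hypothalamus, 45 in cortex, 616 in liver, 1164 in kidney and 1348 in bone marrow. No array weights gave 1695, 637 and 246 in the 3 brain regions and 3555 in liver. All 56 arrays gave 652 in cortex. Each tissue alone gave 1735, 0 and 55 in the brain regions, 938 in liver, 883 in kidney and 797 in bone marrow. At least 2-fold with no overlap gave 954, 556, 3949 and 1662 in cerebellum, hypothalamus, spleen and bone marrow. The cause of these shifts was not tested.

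Leaving out 1 array or 1 age and sex gave 6 to 62 higher and 28 to 160 lower shared genes, with 13 to 24 and 50 to 101 called again. Genes called ranged from 479 to 6791 in cerebellum, 158 to 1387 in hypothalamus, 114 to 666 in cortex, 396 to 4844 in liver, 289 to 6347 in kidney, 6468 to 9032 in spleen and 540 to 3912 in bone marrow. With 2 arrays in a group, small differences were beyond reach. Dim genes gave bounds only, in 18 higher and 71 lower shared genes.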
